A study of Mus musculus with 24 samples.

Results

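Long noncoding RNAs (lncRNAs) were described in 3 subsets of splenic regulatory T (Treg) cells of young and old mice. The RNAs described are the genes that the GENCODE annotation types as lncRNA, that lie on chromosomes 1 to 19, and whose mean over all 24 libraries was at least 200 normalized reads, that is, reads divided by 1 size factor per library. The rule took 147 RNAs out of 2037 autosomal lncRNAs and 17464 genes in the table. The members were thus chosen by their overall mean, without subset or age labels, and their levels are given as a description. An RNA that is low in most groups can still reach that mean through the groups where it is high. Gm15708 did so through rTreg cells and Gm28942 through young aTreg and kTreg cells. A530040E14Rik, low in young mice, reached it through old mice, and other members may have done likewise. For such RNAs the choice by mean and the comparison of those groups are not independent. Just inside the threshold were Gm9856 (mean 208.7) and Gm36920 (208.6), and just outside it Gm46828 (199) and 2810449D17Rik (198).

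Resting Treg (rTreg; CD62L+ CD44-), activated Treg (aTreg; CD62L- CD44+) and KLRG1+ Treg (kTreg) cells came by sorting from the spleens of 4 young mice, aged 2 months, and 4 old mice, aged 26 months. All mice were wild type, of the C57BL/6JRccHsd strain, with no transgene and no treatment. With 1 library for every subset of every mouse there were 24 libraries, 4 in each of 6 groups, with 15045747 to 29521942 reads on listed genes per library. The comparisons ask how kTreg cells, a subset that the study describes as accumulating with age, differ from the other Treg cells and how each subset changes with age.

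lncRNAs are transcripts that encode no known long protein. Some act as RNA in the nucleus: Neat1 is the scaffold of paraspeckles, and Malat1 is concentrated in nuclear speckles. Others are hosts, spliced RNAs whose introns release small nucleolar RNAs (snoRNAs, the guides of ribosomal RNA modification) or whose transcripts are cut into microRNAs (miRNAs), and a further class is read from DNA beside or opposite a protein-coding gene and may rise and fall with it. The cDNA was made from polyadenylated RNA, so a transcript without a poly(A) tail is not measured in proportion to its amount.

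The sequences of 4 start regions are shown first, picked from the RNAs called in the comparisons below. Gm2682 had the smallest p among those lower in kTreg than in aTreg cells. I730030J21Rik rose in that comparison and shares its start region with the coding gene Slc4a8. Gm36496 rose from rTreg to kTreg cells and, in rTreg and aTreg cells, with age. AW112010 is the most abundant RNA per length and rose with age in those same subsets. Each sequence runs 5′ to 3′ on the strand of the gene, from 250 bases before to 50 bases from the annotated start (GENCODE M39, build GRCm39). Capitals mark the matches, on either strand, to the letters named after the sequences.
Gm2682, chr15:60059251-60059550, minus strand: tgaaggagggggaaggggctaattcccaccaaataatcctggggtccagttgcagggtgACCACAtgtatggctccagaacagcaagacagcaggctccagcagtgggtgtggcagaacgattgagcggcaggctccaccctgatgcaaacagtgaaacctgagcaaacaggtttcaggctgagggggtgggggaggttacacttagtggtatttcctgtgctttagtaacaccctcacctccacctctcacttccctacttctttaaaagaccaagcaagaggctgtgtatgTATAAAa
I730030J21Rik, chr15:100659450-100659749, minus strand: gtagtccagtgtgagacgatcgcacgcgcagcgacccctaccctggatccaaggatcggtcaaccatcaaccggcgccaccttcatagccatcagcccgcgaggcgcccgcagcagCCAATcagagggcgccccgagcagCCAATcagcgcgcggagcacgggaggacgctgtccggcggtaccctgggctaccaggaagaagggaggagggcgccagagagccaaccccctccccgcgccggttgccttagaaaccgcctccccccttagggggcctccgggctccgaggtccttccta
Gm36496, chr12:25240293-25240592, minus strand: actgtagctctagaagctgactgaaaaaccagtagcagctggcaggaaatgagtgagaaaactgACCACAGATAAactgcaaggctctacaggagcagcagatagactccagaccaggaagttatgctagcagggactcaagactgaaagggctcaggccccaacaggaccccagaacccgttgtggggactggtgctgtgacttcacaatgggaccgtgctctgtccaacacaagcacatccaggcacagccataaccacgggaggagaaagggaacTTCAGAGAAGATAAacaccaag
AW112010, chr19:11033145-11033444, minus strand: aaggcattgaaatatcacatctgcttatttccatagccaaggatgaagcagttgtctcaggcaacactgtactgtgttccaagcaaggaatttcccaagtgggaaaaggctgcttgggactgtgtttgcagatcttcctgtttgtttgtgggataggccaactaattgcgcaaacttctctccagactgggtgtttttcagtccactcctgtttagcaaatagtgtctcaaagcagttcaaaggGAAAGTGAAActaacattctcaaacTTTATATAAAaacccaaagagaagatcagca
Capitals mark the RUNX letters TGTGGT and the TATA letters TATAAA in Gm2682, the letters CCAAT at 2 positions in I730030J21Rik, the GATA letters AGATAA at 2 positions with the RUNX letters and the STAT letters TTCNNNGAA in Gm36496 (one GATA match overlaps the RUNX match and the other the STAT match), and the interferon-stimulated response element (ISRE) beside overlapping TATA letters in AW112010. Of the windows of all listed genes, 15.7% hold the RUNX letters, 10.3% the TATA letters, 38.2% CCAAT, 9.38% the GATA letters, 7.74% the STAT letters and 3.92% the ISRE; the shares among the 147 lncRNAs are 17.7%, 12.9%, 34.7%, 12.2%, 5.44% and 4.08%. The windows of I730030J21Rik and AW112010 stand at opposite ends in CpG pairs, with 28 in the first and 1 in the second. The median was 8 CpG pairs in the windows of the lncRNAs, 17 in those of protein-coding genes and 14 over all listed genes. The GC box letters GGGCGG, typical of CpG-rich promoters, were in 27.2% of the lncRNA windows and in 56.3% of the coding ones. The letters marked were picked for each sequence. The TATA letters lie after the annotated start, from base 44 in Gm2682 and from bases 20 and 24 in AW112010. A match is a description of the letters and not a bound site.

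3 mature miRNAs whose hairpins lie in the hosts Mir142hg and Dleu2 are given with bases 2 to 8, the seed that pairs with target messenger RNAs, in capitals (RefSeq, GRCm38.p6). The seed of the miRNAs from Dleu2 is the same.
mmu-miR-142a-3p (Mir142hg): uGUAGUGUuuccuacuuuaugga
mmu-miR-15a-5p (Dleu2): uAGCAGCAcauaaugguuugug
mmu-miR-16-5p (Dleu2): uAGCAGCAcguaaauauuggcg

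The levels were very uneven. The 147 lncRNAs took 0.568 to 0.923% of the normalized reads of a library, and Malat1 (mean 34149) and AW112010 (mean 30289) alone gave 42.2% of the summed mean. Next came Gas5 (3843), Chaserr (2646), which holds down its neighbour Chd2, and Neat1 (2504). Only 22 of the 147 had a mean of at least 1000, and the median mean was 380.3. Per kb of exon the order changed, with AW112010 (15221 normalized reads per kb), Malat1 (4330.4), Gm56792 (1459), Mir142hg (999) and Gas5 (909) at the top, against a median of 109 per kb. Neat1 had 112 per kb, with long annotated exons.

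The position of the genes bears on what their reads can say. The library kit does not mark strand, so reads of an exon that overlaps an exon on the other strand cannot be assigned to one of them. Such overlap with a listed gene was present for 76 of the 147, but it reached 10% of the exon bases in 49 and 50% in 8. Of the others, 52 lay apart from the exons of other listed genes, 8 lay inside a coding gene without touching its exons, 7 started head to head with a coding gene within 1000 bases, and 4 overlapped exons on their own strand. 9 held annotated snoRNAs and 7 held annotated miRNAs.

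Libraries of old rTreg cells held more macrophage and monocyte, basophil and mast cell, and platelet marker reads than those of young rTreg cells. Plasma cell and natural killer (NK) cell marker reads were higher there as well. All 4 macrophage and monocyte markers were listed, and their summed level was 10017 to 26172 in old rTreg against 564 to 8021 in young rTreg libraries. The 3 basophil and mast cell markers summed to 1842 to 5589 against 52.1 to 124, and the 3 platelet markers to 451 to 981 against 42.2 to 73.8. The 3 plasma cell markers summed to 8544 to 14185 against 4361 to 5554, and the 3 NK cell markers to 715 to 1585 against 225 to 446. Neutrophil and erythroid marker ranges overlapped. The 2 CD8 T cell markers were lower, at 295 to 554 against 566 to 2185, and the 4 B cell markers lay within the young range, at 7274 to 11169 against 1470 to 40936. In aTreg cells the macrophage markers were at 221 to 322 in old and 52 to 2799 in young libraries, and in kTreg cells at 1890 to 2794 and 0 to 19520, the highest young value of each subset being that of mouse 2. The same 3 libraries of young mouse 2 had the most B cell marker reads, 31824 to 40936 in sum over 4 markers, against at most 18976 in any other library. Old kTreg libraries held more B cell marker reads than old aTreg libraries (15533 to 18976 against 5165 to 11183). They also held more CD8 T cell (311 to 487 against 171 to 268) and, as given above, macrophage marker reads. These ranges did not overlap, while the other lists of such cells overlapped between the 2 groups. In young mice the kTreg and aTreg ranges of these 3 lists overlapped. Old rTreg libraries lay above old aTreg and old kTreg libraries in macrophage and monocyte, plasma cell, and basophil and mast cell marker reads. The basophil and mast cell markers summed to 99 to 189 in old aTreg and 46.1 to 269 in old kTreg libraries. Among old groups, B cell marker reads were highest in kTreg libraries. Comparisons against rTreg cells hold these differences. The part of such RNA in the results was not tested. Young kTreg library 4 stood apart with 4913 genes at 0, against 419 to 2756 in the others. The 6 Treg markers, with Foxp3 among them, were high in every group (47593 or more in sum), and Klrg1 was at 16559 or more in kTreg libraries and at most 357 elsewhere.

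kTreg cells were compared with aTreg cells first. A gene was called where limma gave a Benjamini-Hochberg adjusted p under 0.05 over all 16630 genes tested and a fold change above 1.5, on the log2(value + 1) scale. Of the 147 lncRNAs, all of which were tested, 20 were called, which is 13.6% against 7.39% of all genes tested. Of these, 10 were higher and 10 lower in kTreg cells, where 4.13% of all genes were called higher and 3.26% lower. The genes tested had only to reach 10 in 4 libraries, while the lncRNAs had a mean of at least 200. Shares of lncRNAs and of all genes, here and below, are thus not matched for level, and their difference was not tested. The median log2 fold change of the 147 was −0.06, against −0.08 for all genes. In bulk RNA of sorted cells, fewer cells with a transcript and less of it per cell cannot be told apart. In young mice alone 17 were called (6.95% of all genes) and in old mice alone 6 (2.2% of all genes). The difference between the ages was itself tested, and limma called 0 of 147 (0.156% of all genes). At an unadjusted p under 0.05 were 19 of the 147, and 1563 of the 16630 genes tested. DESeq2 called 3 of the 147 and edgeR 0, counts given without the share of all genes.

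The RNA with the smallest p among those that fell was Gm2682 (ENSMUSG00000115681, chr15:59962013-60059381), which lies 73551 bases from the nearest listed coding gene and shares 12.2% of its exon bases with another lncRNA, Gm41331, on the other strand. Young aTreg libraries held 1458, 1374, 1353 and 1011 normalized reads and young kTreg libraries 505, 439.9, 425 and 520.0. In old mice the aTreg values were 1593, 2153, 1276 and 1152 and the kTreg values 518, 636, 374 and 713. Every kTreg library lay below every aTreg library, in both ages (log2 fold change −1.45 ± 0.15 (SE), adjusted p = 1.6e-06, lower in 8 of 8 mice). The drop was −1.45 in young and −1.46 in old mice. rTreg cells of young mice were higher still, at 2887, 2364, 3657 and 2772, so that in young mice the order rTreg, aTreg, kTreg held with no overlap. A change alike in 8 of 8 mice was part of the rule that named lncRNAs by smallest p in subset comparisons. For those lncRNAs, here and below, it adds no support to the p.

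Gm56573 and 2610204G07Rik, a pair of lncRNAs at the Cwc27 locus on chromosome 13 (Cwc27 encodes a cyclophilin of the spliceosome), were both lower in kTreg cells. Gm56573 (chr13:104715878-104766582) lies 715 bases from Cwc27 and held 498, 525, 473 and 357 in young aTreg and 82.4, 102, 84.9 and 211 in young kTreg libraries. In old mice it held 143, 111, 168 and 185 in aTreg and 77.5, 66.7, 78.1 and 104 in kTreg libraries, lower in 8 of 8 mice (log2 fold change −1.46 ± 0.20 (SE), adjusted p = 4.8e-05). 2610204G07Rik (chr13:104821383-104832334), inside Cwc27, held 579, 481, 530.5 and 380.2 in young aTreg and 109, 119, 155 and 0 in young kTreg libraries. In old mice it held 127, 101, 227 and 237 in aTreg and 118, 59.5, 61.9 and 118 in kTreg libraries, where the groups overlapped (log2 fold change −2.31 ± 0.69 (SE), adjusted p = 0.031 over both ages, −3.69 in young and −0.93 in old mice). The 0 came from young kTreg library 4, which had no read for 6 of the 147 lncRNAs and for 4913 genes. Without that library the log2 fold change was −1.44, still called. The call of 2610204G07Rik was lost without any one of 6 other libraries (young aTreg 1 or 3, old aTreg 3 or 4, old kTreg 2 or 3; adjusted p up to 0.062) and in a fit of the kTreg and aTreg groups alone (0.071). Cwc27 itself was not called (log2 fold change −0.39 ± 0.19 (SE), adjusted p = 0.22). With young kTreg library 4 and old aTreg library 2 left out of the fit together, 23 of the 147 were called, and with young mouse 2 left out 18.

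The other lncRNAs lower in kTreg than in aTreg cells were Gm15708 (log2 fold change −2.72), Gm47015 (−1.14), 5830468F06Rik (−1.13), B630019A10Rik (−1.11), Gm20324 (−0.65), 5830428M24Rik (−0.64) and the snoRNA host Snhg17 (−0.65). 5830428M24Rik, which lies apart from other exons, was lower in 8 of 8 mice (adjusted p = 0.0068). Gm15708 held 346, 326, 207 and 288 in young aTreg and 118, 99.4, 81.7 and 0 in young kTreg libraries, and 27.9 to 33.8 in old aTreg against 0.95 to 29.7 in old kTreg libraries, where the groups overlapped. Without young kTreg library 4 its log2 fold change was −1.89, still called.

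Among the lncRNAs that rose, 2310015A10Rik (ENSMUSG00000097729, chr12:80160337-80186153), which lies 331 bases from Zfp36l1, a gene for a factor of messenger RNA decay, and overlaps the lncRNA 1300014J16Rik over 8.62% of its exon bases, had the smallest p. It held 807, 748, 647 and 466 in young aTreg and 1021, 1524, 950.3 and 1169 in young kTreg libraries. In old mice the values were 299.8, 331, 394 and 415 in aTreg and 550.1, 877, 812 and 664 in kTreg libraries. The groups did not overlap at either age, and the RNA was higher in 8 of 8 mice (log2 fold change 0.90 ± 0.17 (SE), adjusted p = 0.0013).

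Gm56792 (chr3:106944863-106945624) lies opposite Kcna3, the gene of the voltage-gated potassium channel of T cells, and 68.8% of its exon bases overlap exons of that gene. It rose from 566, 474, 493 and 561 in young rTreg to 788, 1063, 1143 and 1147 in young aTreg and 1376, 1614, 1798 and 1287 in young kTreg libraries. It was higher in kTreg than in aTreg cells in 8 of 8 mice (log2 fold change 0.68 ± 0.14 (SE), adjusted p = 0.0019). Kcna3 rose by nearly the same log2 fold change (0.73 ± 0.15), and reads of the overlap cannot be told apart.

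I730030J21Rik (chr15:100628073-100659499) lies head to head with, and 122 bases from, Slc4a8, a bicarbonate transporter gene on the other strand, without exon overlap. Young aTreg libraries held 1532, 1109, 1194 and 1103 and young kTreg libraries 1756, 1847, 1667 and 1252, and old aTreg libraries held 786, 539, 896 and 1079 and old kTreg libraries 1321, 1357, 1736 and 1415. It was higher in 8 of 8 mice (log2 fold change 0.63 ± 0.14 (SE), adjusted p = 0.0053), and only the old groups did not overlap. Slc4a8 rose with it (log2 fold change 0.79 ± 0.23 (SE), adjusted p = 0.025). The fold of I730030J21Rik went under 1.5 without old aTreg library 2 (log2 fold change 0.53), without old kTreg library 3 (0.58) and without young mouse 2 (0.57).

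Neat1, the gene of the paraspeckle scaffold, had more reads in kTreg than in aTreg cells in 8 of 8 mice. Reads were counted per gene, from polyadenylated RNA, so the level of the scaffold itself was not measured. Neat1 held 1576, 3424, 1594 and 1347 in young aTreg and 1866, 3950.2, 2608 and 3158 in young kTreg libraries, and 2419, 1986, 2034 and 2542 in old aTreg and 3328, 4987, 3328 and 3476 in old kTreg libraries. The groups overlapped in young mice, where the highest aTreg library was that of mouse 2, and not in old mice (log2 fold change 0.67 ± 0.19 (SE), adjusted p = 0.024). The call was lost without any one of young aTreg libraries 1, 3 and 4, young kTreg 2, old aTreg 2 and old kTreg 2 (adjusted p up to 0.06). None of the 15 listed paraspeckle proteins was called in this comparison (median log2 fold change −0.03, against −0.08 for all genes), and Malat1, the next gene to Neat1 among these RNAs, did not pass (−0.04, 95% interval −0.45 to 0.37). Besides these, Morrbid (1.18), Gm16008 (1.05), Gm26885 (0.81), Gm36496 (0.79), F730043M19Rik (0.71) and A430093F15Rik (0.66) were higher in kTreg cells. The call of Gm26885, whose exons overlap those of the kinase gene Pim1 over 5.29% of its bases, was lost without any one of 12 libraries (adjusted p up to 0.11).

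**Figure D1:**
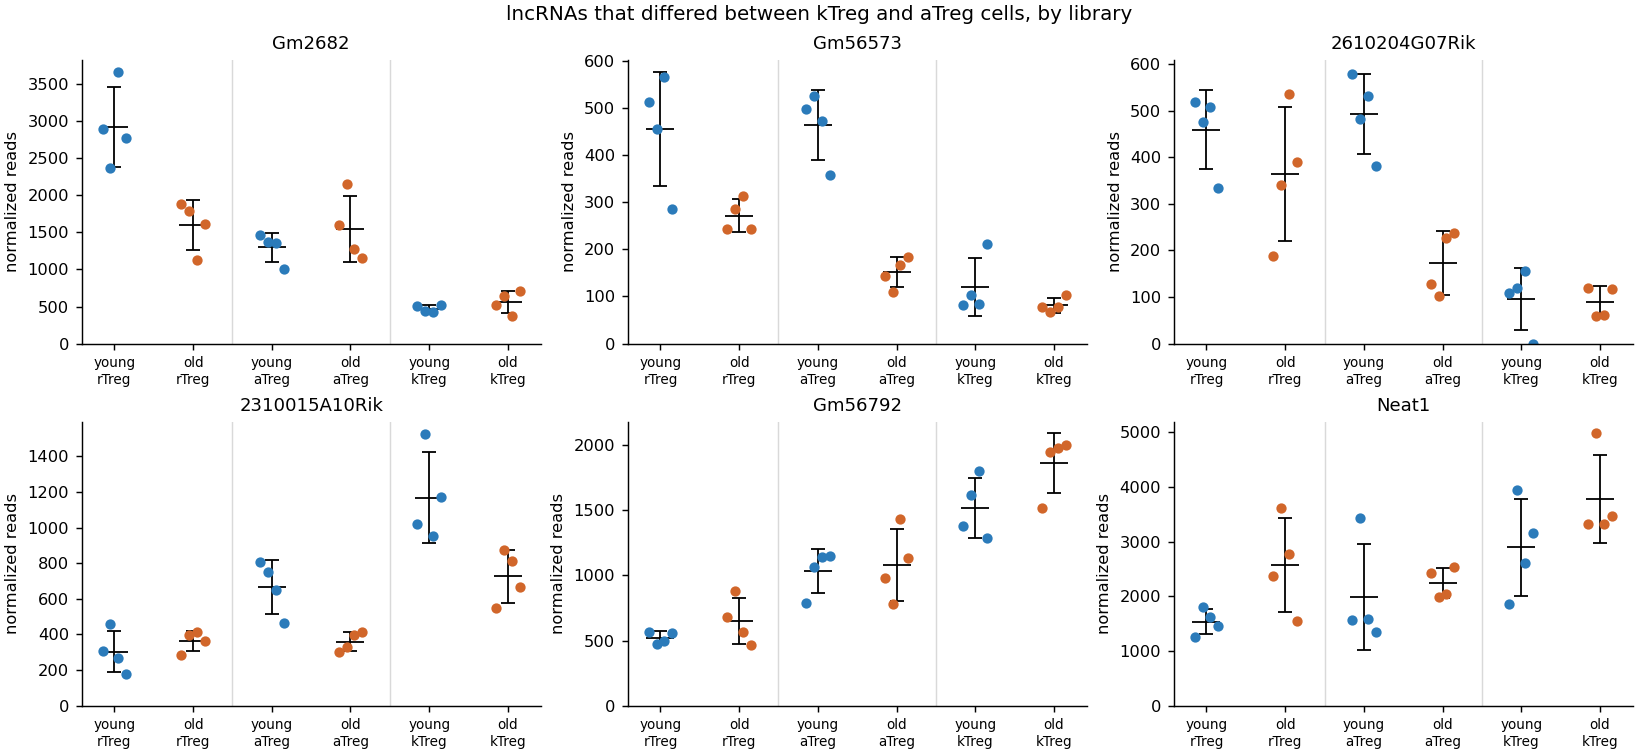
Normalized reads of 6 lncRNAs in each library (vertical axes from 0), by subset and age. Points are libraries, young in blue and old in orange, and lines are the mean with 1 SD over 4 libraries. Gm2682 stays between 374 and 713 in all kTreg libraries and above 1000 in all aTreg libraries.

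**Figure D2:**
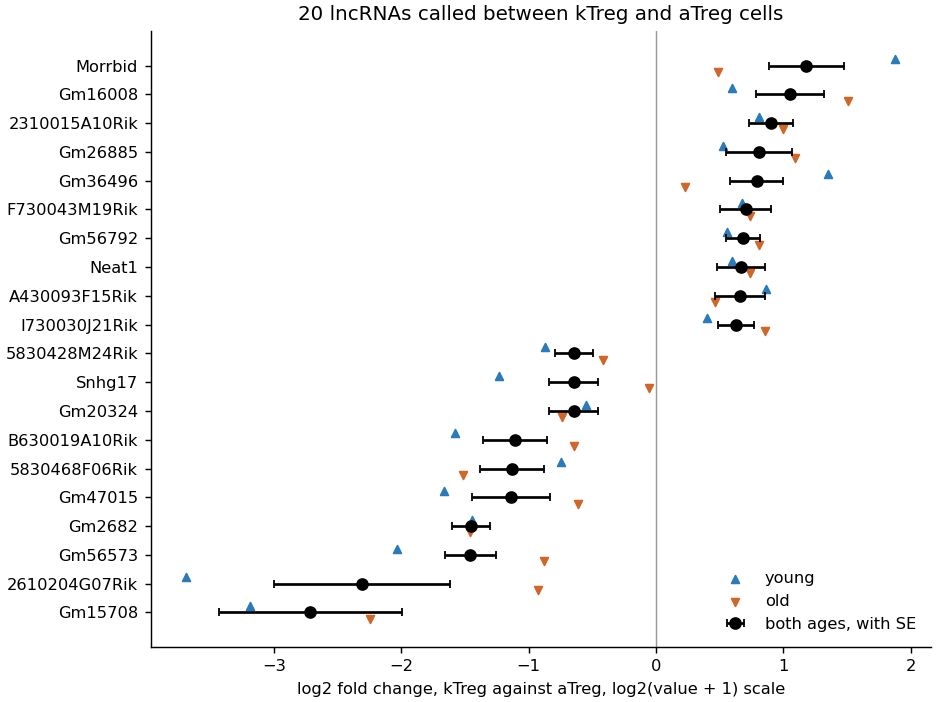
Log2 fold changes between kTreg and aTreg cells, on the log2(value + 1) scale, of the 20 called lncRNAs. Black points with bars are the fit over both ages with its SE, and triangles are the young (blue, up) and old (orange, down) fits. Each of the 20 lies on one side of 0 at both ages.

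The snoRNA hosts were followed with the proteins that bind snoRNAs. Gas5, the host with the most reads, held 4755, 3572, 3949 and 3781 in young aTreg and 2840.2, 2691, 2603 and 3138 in young kTreg libraries, with no overlap, and 3457, 4134, 3519 and 3445 in old aTreg and 3143, 3595, 3445 and 3586 in old kTreg libraries, with overlap. Its difference had an adjusted p of 0.043 but stayed under the fold limit (−0.29). Snhg17 fell in young mice (821, 926, 825 and 763 in aTreg, 469, 486, 471 and 144 in kTreg libraries; log2 fold change −1.23, adjusted p = 0.0056) and had 664, 956, 699.6 and 709 in old aTreg and 741, 748, 708 and 687 in old kTreg libraries (−0.06, adjusted p = 0.97). The difference of Snhg17 between the ages did not pass (adjusted p = 0.33). Its call over both ages was lost without young kTreg library 4 (−0.43), without any one of 5 other libraries (young aTreg 2 or 3, old aTreg 2, old kTreg 3 or 4), in the fit of the compared groups alone and with DESeq2. Snhg1 (−0.75) had an adjusted p of 0.081, and of 0.035 with the mouse as a block. Of the other RNAs that hold annotated snoRNAs, Snhg16 (−0.34), Snhg15 (−0.23), AI506816 (−0.27) and Zfas1 (−0.19) had negative values without a call. Snhg5 (0.23) and 2410006H16Rik (0.04), whose exon bases all overlap Lrrc75a on the other strand, had positive ones, also without a call. Of 8 proteins of the snoRNA particles, 5 were called lower in kTreg than in aTreg cells and none higher. Fibrillarin (Fbl, −0.61), the methyltransferase of box C/D snoRNAs, and Dkc1 (−0.73), the pseudouridine synthase of box H/ACA snoRNAs, were among the 5, and the median of the 8 was −0.61 against −0.08 for all genes.

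None of the 10 nonsense-mediated decay factors, 15 tested factors of the nuclear exosome, 8 factors of m6A methylation and 9 factors of miRNA processing was called between kTreg and aTreg cells, with medians of 0.05, −0.18, 0.14 and 0.16. The miRNA host Mir142hg (0.15, 95% interval −0.19 to 0.50) and Dleu2 (0.37, interval −0.13 to 0.87) were not called, nor was Snhg20 (−0.13), which holds an annotated miRNA and no annotated snoRNA. Neither were Norad, which binds Pumilio proteins (−0.17), Oip5os1, also called Cyrano, which promotes the decay of miR-7 (0.22), Dubr (0.34), and the imprinted RNAs Kcnq1ot1 (−0.31) and Peg13 (0.18). For AW112010 the interval was narrow (−0.24 to 0.26), and for Dleu2 it reaches folds above 1.5.

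Against rTreg cells, kTreg cells differed in more lncRNAs. Of the 147, 34 were called, 23.1% against 15.5% of all genes, with 20 higher (9.37% of all genes) and 14 lower (6.09%). aTreg cells differed from rTreg cells in 16, 10.9% against 8.01% of all genes, with 9 higher (5.23%) and 7 lower (2.78%). In young mice alone 37 were called between kTreg and rTreg cells (15.8% of all genes) and 14 between aTreg and rTreg cells (3.35%), and in old mice alone 19 (8.86%) and 9 (8.6%). The change of the difference with age was called in 3 of the 147 for kTreg against rTreg (3.02% of all genes) and in 2 for aTreg against rTreg cells (1.56%). These comparisons share libraries, so their values are given side by side. Marker reads of other cells also differed between rTreg and the other subsets, as given above, and their part was not tested.

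Gm36496 (ENSMUSG00000120697, chr12:25237255-25240368) had the largest rise in kTreg against rTreg cells. It held 183, 215, 93.6 and 76.3 in young rTreg, 580.4, 258, 485 and 328 in young aTreg and 1127, 894, 1300.2 and 775 in young kTreg libraries, with no overlap between the 3 groups. In old mice the values were 433, 329.9, 508 and 359 in rTreg, 752, 1038, 866 and 1029 in aTreg and 951, 1127, 1286 and 953 in kTreg libraries, and there rTreg libraries lay below the other subsets, which overlapped. The log2 fold change was 2.18 ± 0.21 in kTreg (adjusted p = 7.5e-08) and 1.39 ± 0.21 in aTreg cells (adjusted p = 9.3e-05), each against rTreg cells and higher in 8 of 8 mice. Its exons overlap those of another lncRNA, Gm36287, over 37.9% of their bases, and its nearest coding gene is Id2, an inhibitor of helix-loop-helix factors in T cells, 89973 bases away. Id2 rose by 2.49 in kTreg and 2.48 in aTreg cells against rTreg cells, and between kTreg and aTreg cells Id2 was not called (0.02, adjusted p = 0.96) while Gm36496 was (0.79, adjusted p = 0.013, higher in 7 of 8 mice).

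AW112010, a transcript induced in stimulated immune cells, was higher in both CD62L- subsets than in rTreg cells. Young rTreg libraries held 16732, 11447, 18284 and 11756, young aTreg 28908, 18201, 28776 and 22852 and young kTreg 30224, 25441, 30612 and 35986. The log2 fold change against rTreg cells over both ages was 0.89 ± 0.12 in kTreg (adjusted p = 1.0e-05) and 0.88 ± 0.12 in aTreg cells (adjusted p = 4.2e-05), with 8 of 8 mice higher in each. Peg13, an imprinted RNA inside Trappc9 that shares 27.4% of its exon bases with that gene on the same strand, also rose in both (0.94 and 0.76), as did Gm5547 (0.68 and 0.71), each in 8 of 8 mice. The aTreg call of Peg13 was lost without young rTreg 1, young aTreg 2 or 3, old rTreg 3 or old aTreg 3 (adjusted p up to 0.06) and without young mouse 2 (0.089), and that of Gm5547 without young mouse 2 (0.051). The kTreg call of Gm5547 was lost without young kTreg 4 (0.57) or old rTreg 4 (0.58).

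Lower in kTreg than in rTreg cells were, among others, Gm2682 (log2 fold change −2.07 ± 0.15 (SE), adjusted p = 2.3e-09) and Gm15708 (log2 fold change −5.70 ± 0.72 (SE), adjusted p = 4.0e-06). Gm15708 held 1509, 906, 1570.1 and 1398 in young rTreg and 691, 358, 473 and 325 in old rTreg libraries, against at most 118 in any kTreg library, and without young kTreg library 4 the log2 fold change was −4.87, still called. Of the 7 lncRNAs called lower in aTreg than in rTreg cells, Gm15708 (−2.98), Gm56700 (−1.14) and B630019A10Rik (−0.81) were lower in 8 of 8 mice, and Gm45552 (−1.21), A930005H10Rik (−0.97), E330020D12Rik (−0.80) and Gm2682 in fewer. The aTreg call of B630019A10Rik was lost without any one of 11 libraries or without young mouse 2 (adjusted p up to 0.088). Gm2682 was lower in aTreg than in rTreg cells by a smaller step (−0.62, adjusted p = 0.0095), which went under the fold limit without any one of young rTreg 3, young aTreg 4, old rTreg 1 or 2, or old aTreg 3 or 4. The snoRNA hosts Snhg1 (−0.97, adjusted p = 0.013) and Snhg17 (−0.78) were called lower in kTreg than in rTreg cells, Snhg17 not without young kTreg library 4 (−0.56). Gas5 (−0.54, adjusted p = 1.8e-04) and Zfas1 (−0.57) were lower at less than 1.5-fold. Of the snoRNA particle proteins, 5 of 8 were again called lower (median −0.62).

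Pvt1, the lncRNA downstream of the growth regulator Myc, was called higher in kTreg than in rTreg cells and Myc lower. Pvt1 held 364, 419.8, 324 and 290.1 in young rTreg and 340.0, 561, 514 and 1111 in young kTreg libraries, and 323, 414, 484 and 415 in old rTreg and 609, 571, 655 and 634 in old kTreg libraries, where the groups did not overlap (log2 fold change 0.67 ± 0.17 (SE), adjusted p = 0.0068). Myc held 4607, 4519.7, 4469 and 4486 in young rTreg and 1763, 2039.6, 1394 and 782 in young kTreg libraries, without overlap (log2 fold change −1.30 ± 0.15 (SE), adjusted p = 1.6e-06). The value of 1111 came from young kTreg library 4, and without it the log2 fold change of Pvt1 was 0.51, under the fold limit. Lncpint, a p53-linked RNA, was higher in kTreg than in rTreg cells (log2 fold change 0.68 ± 0.24 (SE), adjusted p = 0.042). That call was lost with the mouse as a block (adjusted p = 0.059), in the fit of the compared groups alone (0.11), with edgeR (0.068), without young mouse 2 (0.13) and without any one of 10 libraries.

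The lncRNAs were set beside the nearest coding gene within 100 kb, which 130 of the 147 had among the tested genes. Across these 130 pairs the log2 fold changes of the lncRNA and its neighbour had a Pearson r of 0.27 between kTreg and aTreg cells, 0.42 between kTreg and rTreg and 0.45 between aTreg and rTreg cells, and of 0.13, 0.21 and 0.17 between old and young rTreg, aTreg and kTreg cells. The pairs share libraries, some share exon sequence and 124 neighbours serve 130 lncRNAs, so these are descriptions. Of the 32 lncRNAs called between kTreg and rTreg cells that had such a neighbour, 13 had a neighbour called in the same direction, 1 (Pvt1) in the opposite one, and 18 a neighbour that was not called. Of all 130 pairs, 26 had a neighbour called in that comparison. Between kTreg and aTreg cells the neighbour was called in the same direction for 3 of 18 called lncRNAs and not called for 15. Between aTreg and rTreg cells these counts were 2 of 14 and 12. Of all 130 pairs, 14 had a neighbour called between kTreg and aTreg and 12 between aTreg and rTreg cells. With age the neighbour was called in the same direction for 1 of 10 called lncRNAs in rTreg, 2 of 7 in aTreg and 1 of 4 in kTreg cells. The neighbours called with age over all 130 pairs were 8, 5 and 5 in these subsets. In rTreg cells 2 of the 10, Morrbid and Gm11707, had a neighbour called in the opposite direction. The values of single pairs that follow are for kTreg against rTreg cells, with the lncRNA first. The pairs that moved together included lncRNAs inside or opposite their neighbour, such as 5830468F06Rik in Kbtbd11 (−1.74 and −1.78), Gm20324 in Tcf20 (−1.24 and −1.22) and A930005H10Rik opposite Dph5, an enzyme of diphthamide synthesis (−1.43 and −0.68). They also included lncRNAs apart from it, such as B630019A10Rik 248 bases from the sialyltransferase gene St6gal1 (−1.92 and −0.60), AI504432 886 bases from Kcna3 (1.21 and 1.58), and Gm36496.

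**Figure D3:**
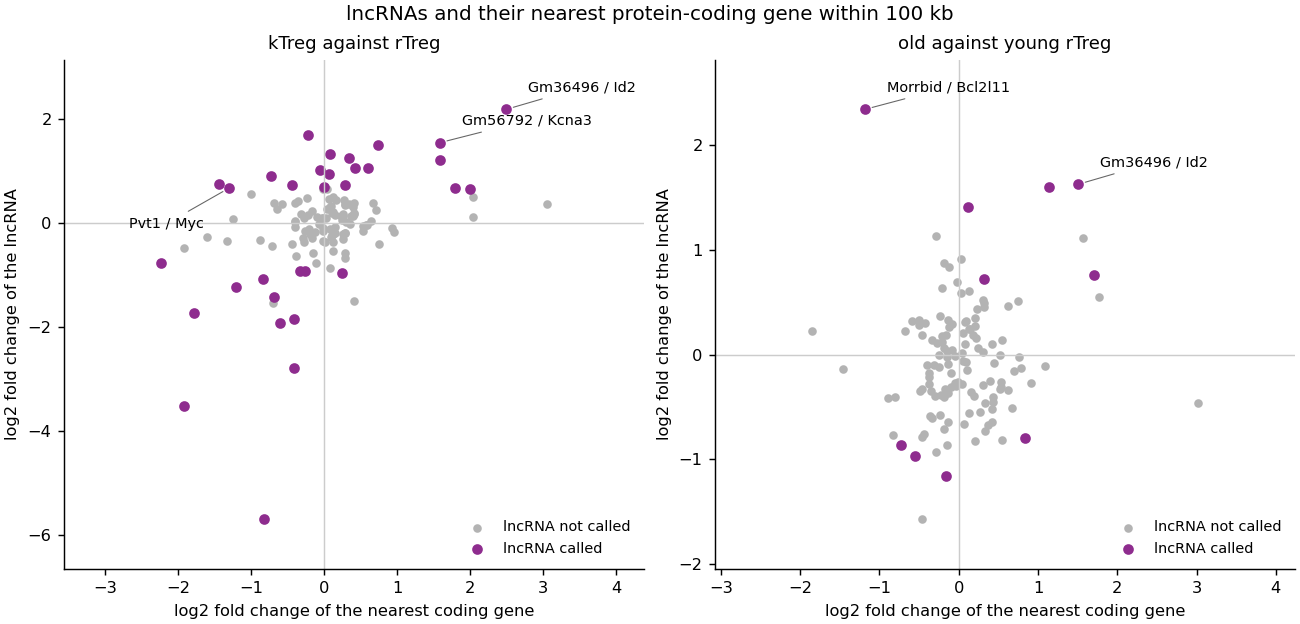
Log2 fold changes of 130 lncRNAs (vertical) against those of the nearest coding gene within 100 kb (horizontal), for kTreg against rTreg cells on the left and old against young rTreg cells on the right. Purple points are lncRNAs called in that comparison. Pvt1 with Myc and Morrbid with Bcl2l11 lie at the upper left, where the lncRNA was higher and its neighbour lower.

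**Figure D4:**
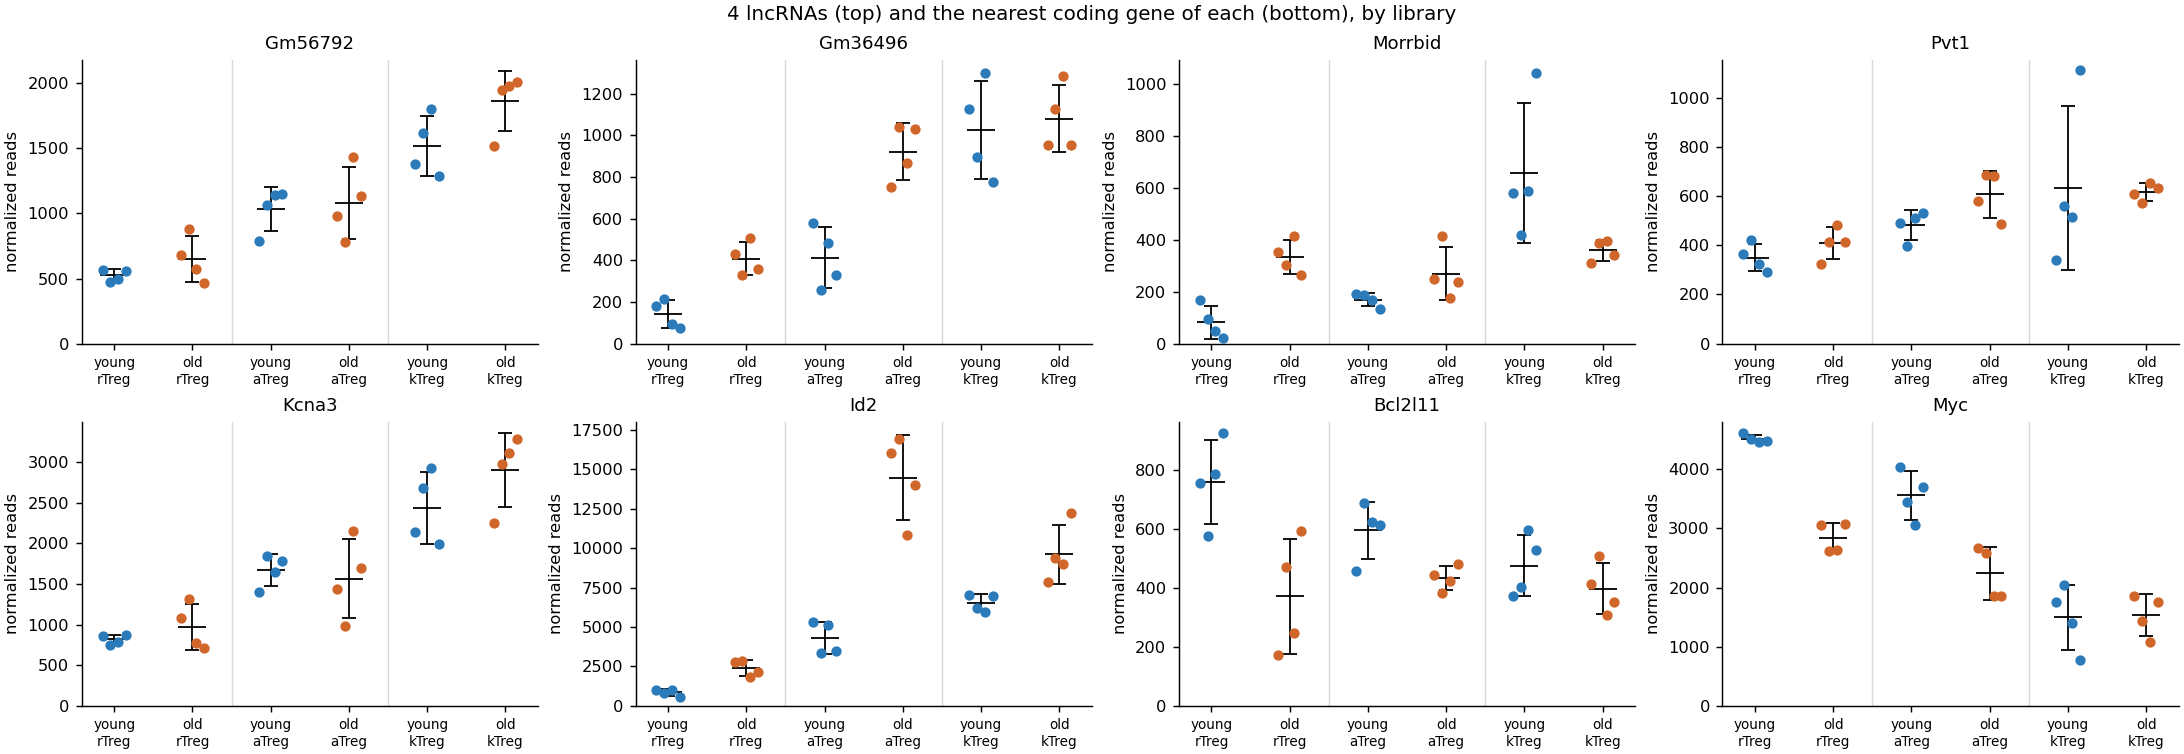
Normalized reads by library of 4 lncRNAs in the upper row and of the nearest coding gene of each in the lower row, by subset and age, with mean and 1 SD over 4 libraries. Gm56792 and Kcna3 both have their lowest mean in young rTreg and their highest in old kTreg cells, while Morrbid has its lowest and Bcl2l11 its highest mean in young rTreg cells.

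Fewer lncRNAs were called between the ages than between the subsets over both ages. Comparisons by age set 4 libraries against 4, while those by subset took both ages. At 4 against 4, kTreg against aTreg, kTreg against rTreg and aTreg against rTreg gave 17, 37 and 14 in young mice. In old mice they gave 6, 19 and 9. Between old and young mice 11 of the 147 were called in rTreg cells (7.48%, against 5.83% of all genes), 6 higher and 5 lower (4.12% and 1.71% of all genes). In aTreg cells 8 were called (5.44%, against 2.71%), 5 higher and 3 lower (1.85% and 0.86%). In kTreg cells 4 were called (2.72%, against 1.26%), 3 higher and 1 lower (1.02% and 0.235%). Single libraries moved these counts, to 4 in rTreg cells without young rTreg 3 and to 23 without young kTreg 4, to 5 in aTreg cells without young aTreg 2 or old aTreg 2 and to 15 without young kTreg 4, and to 2 in kTreg cells without any one of 11 libraries. Over all 6 comparisons of subset and age, 47 of the 147 were called at least once and 100 in none. The same count was not taken over all genes, so it does not set the lncRNAs apart from other genes.

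A530040E14Rik (ENSMUSG00000072109, chr1:85080984-85254067) was called higher in old mice in all 3 subsets. It held 132, 209, 196 and 79.3 in young and 453, 354, 513 and 453 in old rTreg libraries. In aTreg cells it held 140.4, 92.7, 129 and 61.5 in young and 436, 161, 441 and 373 in old libraries, and in kTreg cells 106, 91.8, 103 and 118 in young and 445, 364, 306 and 359.7 in old libraries. Old and young libraries did not overlap in any subset. Lack of overlap was part of the rule that named lncRNAs by smallest p between the ages, so for those, here and below, it adds no support. The log2 fold changes were 1.60 ± 0.33 in rTreg (adjusted p = 0.0046), 1.69 ± 0.33 in aTreg (adjusted p = 0.0045) and 1.80 ± 0.33 in kTreg cells (adjusted p = 0.0064), and held in each of 35 alternatives. The gene lies among the Sp100 and Sp140 family, whose copies are alike in sequence, 26.1% of its exon bases overlap Sp140l2 on the other strand and 12.5% overlap Sp110-ps1 on its own, so its reads may be shared. Sp140l2 had log2 fold changes of 1.14, 1.36 and 1.00 without a call.

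AW112010 was higher in old rTreg cells, at 21485, 22654, 31273 and 22407 against 16732, 11447, 18284 and 11756 in young libraries, and in old aTreg cells, at 47383, 48311, 42697 and 53962 against 28908, 18201, 28776 and 22852. Old and young did not overlap in either (log2 fold change 0.76 ± 0.17 (SE), adjusted p = 0.0081 in rTreg and log2 fold change 0.98 ± 0.17 (SE), adjusted p = 0.0016 in aTreg cells). The rTreg call was lost in the fit of the compared groups alone (adjusted p = 0.056). In kTreg cells, young libraries were at 25441 to 35986 and old ones at 33908 to 46135, overlapping (0.36, adjusted p = 0.31). The difference of the age effect between kTreg and aTreg cells did not pass (log2 fold change −0.62 ± 0.24 (SE), adjusted p = 0.42).

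Gm28942 (ENSMUSG00000100170, chr1:82797179-82800849) fell with age in aTreg and kTreg cells. It lies 15891 bases from Agfg1 and shares 16.8% of its exon bases with Gm17764 on the other strand. Young aTreg libraries held 578, 465, 461 and 468 and old ones 153, 89.9, 208 and 217, and young kTreg libraries 374, 435, 334 and 435 and old ones 106, 87.4, 132 and 105, with no overlap in either subset. In rTreg cells young libraries held 195, 87.5, 87.0 and 84.3 and old ones 127, 157, 181 and 116, which overlapped. The fall was −1.63 ± 0.29 in aTreg (adjusted p = 0.0019) and −1.87 ± 0.29 in kTreg cells (adjusted p = 0.0012), against 0.43 in rTreg cells (adjusted p = 0.42). The age effect differed from that in rTreg cells for kTreg (log2 fold change −2.30 ± 0.41 (SE), adjusted p = 0.0034) and for aTreg cells (log2 fold change −2.06 ± 0.41 (SE), adjusted p = 0.015), and all these calls held in each of 35 alternatives. In young mice all kTreg and aTreg libraries lay above the rTreg libraries, and in old mice the log2 fold changes against rTreg cells were −0.42 and 0.14, without a call.

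Morrbid, a lncRNA that in short-lived myeloid cells represses the neighbouring gene of the death factor BIM, Bcl2l11, changed with age in rTreg cells. Young rTreg libraries held 166, 96.4, 47.5 and 22.1 and old ones 353, 305, 414 and 265, without overlap (log2 fold change 2.34 ± 0.42 (SE), adjusted p = 0.0012). Bcl2l11, 15710 bases away, held 754, 577, 786 and 924 in young and 172, 471, 246 and 594 in old rTreg libraries, which overlapped by 1 old library (log2 fold change −1.18 ± 0.29 (SE), adjusted p = 0.014). In kTreg cells Morrbid was at 582, 418, 589 and 1042 in young and 312, 389, 396 and 343 in old libraries, without overlap, but with no call (−0.79, adjusted p = 0.36). The difference between kTreg and rTreg cells went from 3.25 in young to 0.12 in old mice, and that change passed the test (log2 fold change −3.13 ± 0.59 (SE), adjusted p = 0.0047), in each of 35 alternatives. Myeloid marker reads rose in the same old rTreg libraries, as given above, and their part in the rise of Morrbid was not tested.

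Gm36496 was higher in old than in young rTreg (log2 fold change 1.63 ± 0.29 (SE), adjusted p = 0.0012) and aTreg cells (log2 fold change 1.21 ± 0.29 (SE), adjusted p = 0.021), as was its neighbour Id2 (1.51 and 1.75), and neither was called in kTreg cells (0.09 and 0.54). The aTreg call of Gm36496 was lost without young aTreg 2 or 4, old aTreg 2 or 4, or young mouse 2 (adjusted p up to 0.101). The gap between kTreg and rTreg cells was smaller in old mice (log2 fold change −1.53 ± 0.41 (SE), adjusted p = 0.044), a call lost without any one of 16 libraries, in the fit of the compared groups alone and with edgeR. Gm19585, whose nearest coding gene, the chromatin organizer Satb1, lies 152821 bases away, held 804, 415, 654 and 545 in young and 1319, 2451, 948 and 1236 in old aTreg libraries, without overlap (log2 fold change 1.25 ± 0.23 (SE), adjusted p = 0.0031). Its age effect differed from that in rTreg cells (log2 fold change 1.47 ± 0.33 (SE), adjusted p = 0.027), a call lost without young rTreg 1, 3 or 4, young aTreg 2 or 4, old rTreg 4 or old aTreg 1, and in the fit of the compared groups alone (adjusted p up to 0.072).

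Gm56573, lower in kTreg cells, was also lower in old than in young aTreg cells (143, 111, 168 and 185 against 498, 525, 473 and 357; log2 fold change −1.62 ± 0.28 (SE), adjusted p = 0.0018), and this held in each of 35 alternatives. B630019A10Rik fell there too (log2 fold change −1.31 ± 0.35 (SE), adjusted p = 0.04) with its neighbour St6gal1 (−0.98, adjusted p = 0.0035), though the call of the lncRNA was lost without any one of 11 libraries and with edgeR (adjusted p up to 0.131).

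In rTreg cells Gm2682 (−0.88), A930005H10Rik (−0.97), Gm56700 (−1.15) and Gm9856 (−0.87) were lower and Norad (0.72) was higher in old mice, with adjusted p from 0.015 to 0.045. Lack of overlap was part of the rule that named the first 3. Each of the 4 that fell lost its call without young rTreg library 3, where each was highest, and 3 of them, all but Gm2682, in the fit of the compared groups alone. A930005H10Rik and Gm9856 also did without young rTreg 1 or old rTreg 4, A930005H10Rik without old rTreg 2, Gm9856 without old rTreg 1, and Gm56700 without old rTreg 4. The call of Norad was lost without any one of 15 libraries and with TMM rescaling (adjusted p up to 0.137 over 35 alternatives). In kTreg cells Gm12216, whose span overlaps that of Il5 and whose exons overlap Irf1 over 9.65% of its exon bases, was at 373, 323, 369 and 396 in young and 549, 525, 694 and 679 in old libraries (log2 fold change 0.74 ± 0.18 (SE), adjusted p = 0.041). Gm11131, opposite the class I gene H2-Q4, one of a family of like sequences, was at 218, 201, 269 and 148 and 399, 363, 404 and 428 (log2 fold change 0.96 ± 0.24 (SE), adjusted p = 0.0497). Neither pair of groups overlapped, and the calls were lost without any one of 13 libraries for Gm12216 and of 19 for Gm11131, and for both in the fit of the compared groups alone and with edgeR.

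**Figure D5:**
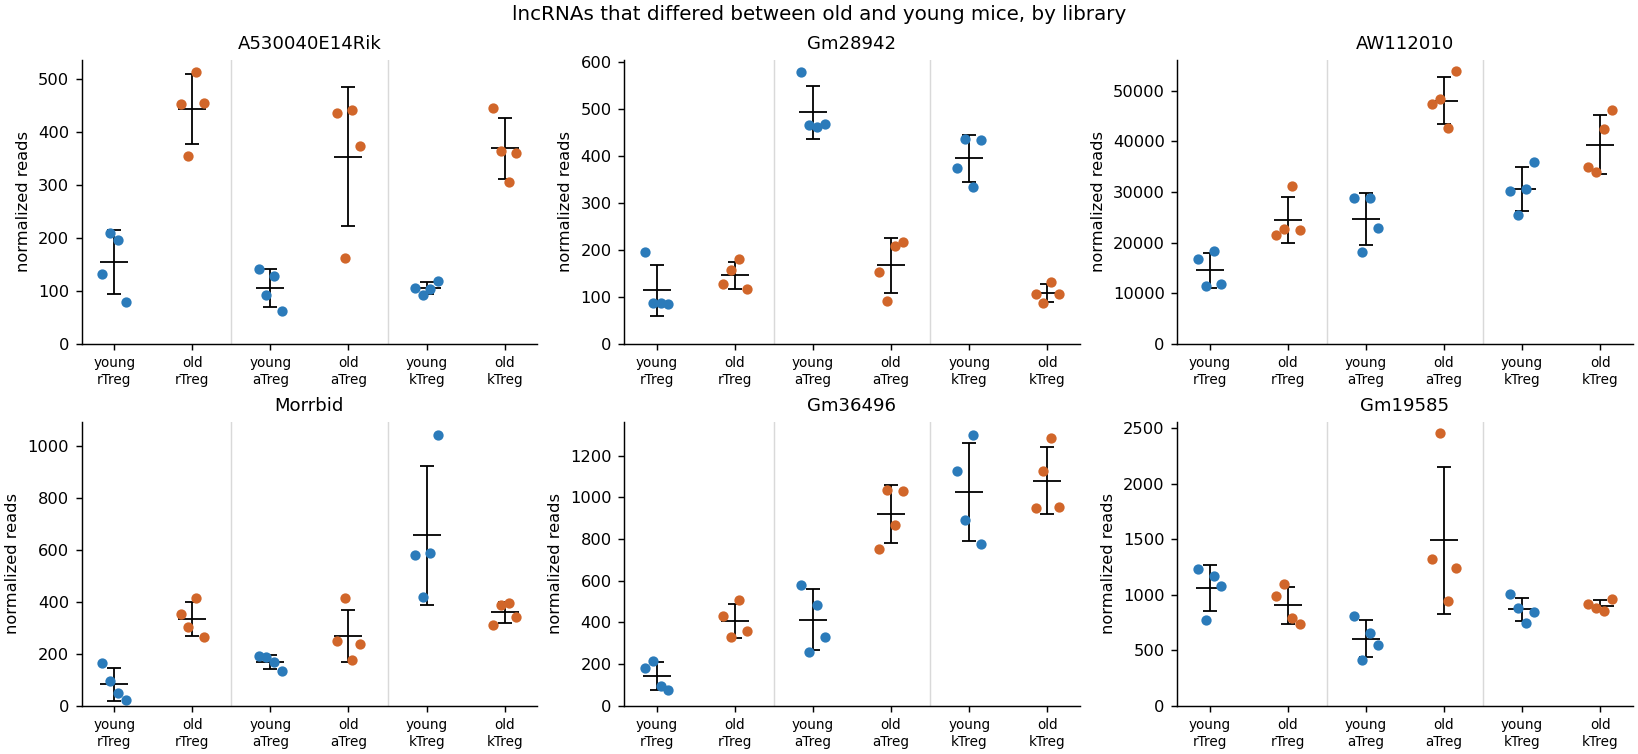
Normalized reads of 6 lncRNAs called between old and young mice, by library, subset and age, with mean and 1 SD over 4 libraries. A530040E14Rik is higher in old libraries of every subset, Gm28942 is lower in old aTreg and kTreg libraries, and Morrbid has its lowest mean in young rTreg cells.

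The spread within groups was modest for most of the 147, with a median SD of 0.4 on the log2(value + 1) scale against 0.48 over all genes tested. Gas5 was among the least variable (0.18). Gm42031 was the most variable (3.17). In young mice 61 of the 147 had their highest group mean in rTreg cells, 34 in aTreg and 52 in kTreg cells, and in old mice 47, 45 and 55. Over all genes tested the corresponding shares were 34.1%, 29% and 36.9% in young and 35.7%, 30.5% and 33.8% in old mice, against 41.5%, 23.1% and 35.4%, and 32%, 30.6% and 37.4%, of the lncRNAs. These shares rest on means whose order often lies within the spread between libraries.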

How the data were processed

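cDNA came from the SMART-Seq v4 kit, which marks neither strand nor molecules. The authors sequenced paired reads of 150 bases and, per the labels' processing notes and the paper, used HISAT2 2.2.1, SAMtools 1.13, HTSeq 1.99.2 and DESeq2 1.44.0 with GRCm39. The strand setting, annotation release and treatment of multiply mapped reads are not given in the sources used here. The deposited values are a normalized signal, the gene's reads over the size factor of its library. Whole reads were recovered from the steps between the values (100% of values within 0.01 of a whole read), and all columns were matched to samples. Copies made by PCR cannot be told from separate molecules.

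Gene types, exons and positions came from GENCODE M39, which lacked 111 of the identifiers. The main test was limma 3.58.1 (R 4.3.3, mean-variance trend) on log2(value + 1) in 6 groups over genes that reached 10 in 4 or more libraries. DESeq2 1.42.0 and edgeR 4.0.16 on the whole reads (1523 and 1211 genes called between kTreg and aTreg cells, against 1229), other pseudocounts and filters, TMM rescaling, an unadjusted p, the compared groups alone, the replicate block and leaving out libraries were the alternatives. The 2 that leave out libraries by their marker reads or genes at 0 were chosen after the data were seen. The limma fit was tried on simulated independent libraries for kTreg against aTreg and for old against young kTreg cells. DESeq2, edgeR and the age differences were not tried in this way. The study's design text names 8 mice in all as the source of the 3 subsets, so libraries of an age with the same sample number were taken as those of 1 mouse. Their deviations from group means correlated with a median of 0.15 (rTreg and aTreg), 0.09 (rTreg and kTreg) and 0.12 (aTreg and kTreg) within a mouse (lowest −0.06, 0.04 and 0.06), against −0.03, −0.03 and −0.05 between mice. The main fit has no mouse term, so its p-values measure the spread between libraries within groups and leave out this pairing.

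The lncRNAs and gene lists were chosen with earlier results of these data known. Named are the 5 (kTreg against aTreg) or 3 (other comparisons) called lncRNAs of smallest p in each direction, changed alike in 8 of 8 mice or with ages that do not overlap, called interactions, the 5 highest per kb, known lncRNAs from a written list, and those next to the threshold. 2410006H16Rik, A430093F15Rik, AI504432, AI506816, E330020D12Rik, F730043M19Rik, Gm16008, Gm20324, Gm11707, Gm42031, Gm45552, Gm47015, 5830468F06Rik, Chaserr and the coding neighbours were named after their values were seen. Plots used Python 3.11.15 with pandas 2.3.3 and matplotlib 3.10.9.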

Additional observations from a re-analysis of the deposited data

Results flagged for a closer look

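In 21 of 252 groups of 4 libraries of the 42 named lncRNAs, 1 library lay far from the other 3. Chance flags about 1 group in 20.
In old aTreg library 2 these were Gas5 (4134, above the nearest of the others at 3519), Snhg17 (956, above the nearest of the others at 709), A930005H10Rik (779.9, above the nearest of the others at 381) and Gm36920 (361, above the nearest of the others at 272). In old aTreg library 4 this was Dubr (277, below the nearest of the others at 325). In old kTreg library 1 this was Gm56792 (1514, below the nearest of the others at 1949). In old kTreg library 2 these were Neat1 (4987, above the nearest of the others at 3476), Peg13 (584, above the nearest of the others at 454) and Gm26885 (601, above the nearest of the others at 274). In old rTreg library 3 these were AW112010 (31273, above the nearest of the others at 22654) and Snhg20 (1112, above the nearest of the others at 615). In young aTreg library 1 these were Malat1 (51009, above the nearest of the others at 28864) and Gm28942 (578, above the nearest of the others at 468). In young aTreg library 2 these were Neat1 (3424, above the nearest of the others at 1594) and Gm11131 (172, below the nearest of the others at 329). In young kTreg library 4 these were Oip5os1 (2890.3, above the nearest of the others at 1851), Snhg17 (144, below the nearest of the others at 469), Gm56573 (211, above the nearest of the others at 102), B630019A10Rik (198, above the nearest of the others at 95.5) and Dleu2 (114, below the nearest of the others at 328). In young rTreg library 1 this was Gm28942 (195, above the nearest of the others at 87.5).

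The effect of age differed between subsets, by a test of the difference itself, for Gm36496 (−1.53 for kTreg against rTreg cells), Morrbid (−3.13) and Gm28942 (−2.30), and between aTreg and rTreg cells for Gm19585 (1.47) and Gm28942 (−2.06), all on the log2 scale. The values behind them are given above.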

How the results depend on the processing

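Leaving out 1 library gave 14 to 23 called lncRNAs between kTreg and aTreg cells, 32 to 36 between kTreg and rTreg and 12 to 21 between aTreg and rTreg cells (main 20, 34 and 16), 4 (without young rTreg 3) to 23 (without young kTreg 4) in old against young rTreg (main 11), 5 (without young aTreg 2 or old aTreg 2) to 15 (without young kTreg 4) in aTreg (main 8) and 2 to 6 in kTreg cells (main 4). For the age differences of kTreg against aTreg, kTreg against rTreg and aTreg against rTreg it gave 0 to 1, 2 to 8 and 1 (without any one of 6 libraries) to 7 (main 0, 3 and 2), the highest of the last 2 without young kTreg 4. With an unadjusted p the counts by age were 31, 16 and 18 in rTreg, aTreg and kTreg cells, and 17, 25 and 20 for the 3 age differences. The compared groups alone gave 6 in rTreg and 2 in kTreg cells. DESeq2 gave 13 in aTreg, 9 in kTreg cells and 3, 9 and 6 for the age differences, and edgeR 2 in kTreg cells. The replicate block (mouse) gave 6 for the age difference of kTreg against rTreg and 6 for that of aTreg against rTreg cells, and moved no other count by over 1.5 times. Of the alternatives chosen after seeing the data, leaving out young kTreg library 4 and old aTreg library 2 gave 25 between aTreg and rTreg cells, 24 and 7 by age in rTreg and kTreg cells and 9 for the age difference of kTreg against rTreg, and leaving out young mouse 2 gave 5 by age in aTreg cells and 6 for that age difference. The cause was not tested. The subset counts were within 1.5 times of the main ones in the other alternatives, and no called value changed sign. Counts under the alternatives, here and above, are of lncRNAs only, without the share of all genes. They describe how the main counts moved and not how lncRNAs compare with other genes.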
